A study of Mus musculus with 23 samples.

Results

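Hippocalcin and its closest relatives are small calcium sensor proteins of neurons, and 6 of their genes were examined here: Hpca, Hpcal1, Hpcal4, Ncald, Vsnl1 and Ncs1. They are 6 of the 18848 genes in the deposited expression table, each found by its Ensembl identifier, and all 6 passed the filter on low values that left 17256 genes to be tested. The members were chosen by a measured value: the p-value of Hpca for genotype was among the lowest in these data, and the other 5 genes came with it by kinship. The genotype values below therefore only describe the members, and no p-value for genotype is given for them.

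Neuronal calcium sensors carry EF hands, folded loops that hold calcium ions, and a fatty acid (myristate) on a glycine at their start. In several of them, hippocalcin among them, calcium binding pushes the myristate out, and the protein then moves from the cytosol to membranes, where it can act on channels, receptors and trafficking proteins. Calcium that enters through NMDA receptors is one of the signals that hippocalcin is known to respond to, in the excitability and long-term depression of hippocampal neurons.

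The study sequenced brain RNA from male C57BL/6J mice at postnatal day 17 (P17), either wild type (WT) or heterozygous (HT) for Grin2b, the gene of the NMDA receptor subunit GluN2B. The series title names the mutation as C456Y, a single amino acid change, which a table of gene totals cannot show. Each genotype was given vehicle or DCS, an abbreviation the labels do not spell out and which commonly stands for D-cycloserine, a drug that partly activates NMDA receptors through their glycine site. The WT mice gave 6 libraries under vehicle and 5 under DCS, and the HT mice 6 under each, for 23 in all. The labels state no dose, route, interval to dissection or brain region. They also do not tie each library to its own mouse, so a p-value here reflects only how far these libraries spread, which may be partly technical.

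Values are normalised reads, read counts scaled by the authors to make libraries comparable. The 23 totals lay between 32.3 M and 33.5 M, and the depth before scaling was estimated at 25.8 M to 37.5 M reads. The 6 neuronal markers checked, the 12 striatal and the 11 cerebellar ones were all in the table, as were 12 of 15 hindbrain markers. Each of these reached a mean of 10 normalised reads in some group, so markers of both rostral and caudal brain were present. The hindbrain list varied: the mean of its markers on the log2(value + 1) scale was 2.86 and 3.25 in HT DCS libraries 5 and 6, against group means of 5.28 in WT vehicle, 5.05 in WT DCS, 4.75 in HT vehicle and 4.42 in HT DCS. Oligodendrocyte markers averaged 13.95 in both WT groups, 13.85 in HT vehicle and 13.71 in HT DCS on the same scale. In such bulk tissue, fewer cells of a type and less RNA per cell cannot be told apart.

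The first 12 codons of the 6 transcripts (GENCODE M21, build GRCm38) are shown because all members share the codon for the glycine that carries myristate. It is the second codon, in capitals, written GGC in Hpca and Hpcal1 and GGG in the other 4.
Hpca: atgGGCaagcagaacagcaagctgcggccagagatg
Hpcal1: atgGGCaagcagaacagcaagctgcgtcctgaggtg
Ncald: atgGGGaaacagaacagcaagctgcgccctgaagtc
Vsnl1: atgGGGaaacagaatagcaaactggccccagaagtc
Hpcal4: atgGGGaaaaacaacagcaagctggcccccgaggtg
Ncs1: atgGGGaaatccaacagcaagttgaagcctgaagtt

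The stretch that encodes a calcium-holding EF-hand loop, 36 bases from codon 73, is shown because it tells how near the members are to each other. Capitals mark the 19 bases that are the same in all 6.
Hpca: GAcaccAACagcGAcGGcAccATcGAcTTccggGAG
Hpcal1: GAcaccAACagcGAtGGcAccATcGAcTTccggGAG
Ncald: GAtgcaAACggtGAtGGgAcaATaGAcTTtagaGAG
Vsnl1: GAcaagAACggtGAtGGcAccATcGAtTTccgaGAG
Hpcal4: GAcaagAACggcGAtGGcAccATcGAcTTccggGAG
Ncs1: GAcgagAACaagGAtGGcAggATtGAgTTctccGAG

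By coding sequence the members fell into pairs. Hpca and Hpcal1 were 86.0% identical, with Ncald at 79.6% to Hpca and 80.1% to Hpcal1. Hpcal4 and Vsnl1 were 82.4% identical, and Ncs1 stood furthest away, at 64.9% to Hpca and 63.2% to Ncald. Despite this likeness, long identical stretches were few. Of the 2978 stretches of 31 bases in Hpca transcripts, 32 (1.07%) also occurred in another member, and none of those of Ncs1 did. Hpcal1 was the least distinct in the transcriptome, since 327 of its 1664 stretches (19.7%) occurred in some other gene, 93 of them in the predicted gene Gm20336. Its value is therefore the one most open to reads shared with other genes.

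The 6 genes lie on 4 chromosomes of GRCm38 and are all annotated as protein coding. Hpca (ENSMUSG00000028785) is at chr4:129111570-129122036 on the minus strand and Hpcal4 (ENSMUSG00000046093) at chr4:123183227-123194701 on the plus strand. Vsnl1 (ENSMUSG00000054459) is at chr12:11325242-11436613 on the minus strand and Hpcal1 (ENSMUSG00000071379) at chr12:17690856-17791933 on the plus strand. Ncald (ENSMUSG00000051359) is at chr15:37366175-37792570 on the minus strand, and Ncs1 (ENSMUSG00000062661) at chr2:31245823-31295989 on the plus strand.

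Vsnl1 was the most abundant member per length, at 8230 ± 371 normalised reads per kb of merged exons (SD over all 23 libraries). Hpca followed at 3707 ± 217 and Hpcal4 at 3482 ± 213, a gap of about 1 SD. Ncald (1685 ± 57.9), Ncs1 (1616 ± 65.9) and Hpcal1 (1547 ± 115) formed a low group whose neighbours lay within about 1 SD of each other. The order below the top depended on the length used. Per kb of the longest principal transcript, Hpca had 5865, Ncald 3873, Hpcal4 3770, Hpcal1 1718 and Ncs1 1616 normalised reads, so Ncald moved up beside Hpcal4 and Hpcal1 passed Ncs1. Vsnl1 (8459) and Hpca kept the first and second places on both lengths over all 23 libraries. Within HT vehicle, Hpcal4 (3600 ± 201) and Hpca (3594 ± 110) were about level per kb of merged exons.

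**Figure D1:**
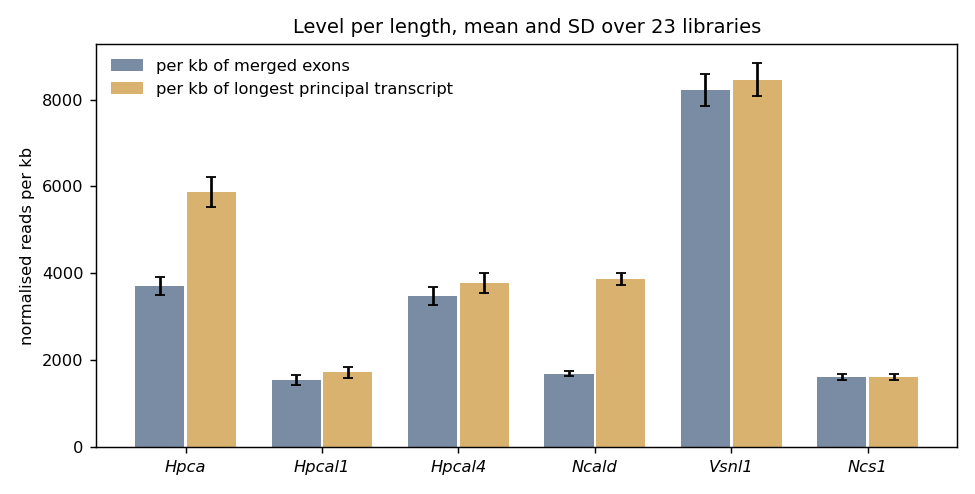
Normalised reads per kb for each of the 6 sensor genes, as bars for the mean and lines for the SD over 23 libraries, by merged exons and by longest principal transcript. Vsnl1 is highest by either length, and Ncald moves from 1685 to 3873 between them.

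Hpca encodes hippocalcin, which is abundant in hippocampal pyramidal cells and in the striatum and takes part in the slow afterhyperpolarisation of neurons. Its value under vehicle ranged in WT from 10954 to 11546, with a median of 11338, and in HT from 10064 to 10870, with a median of 10492. In the 5 WT DCS libraries it was 11979, 11201, 11667, 10990.0 and 11163, and in HT DCS it ranged from 9232 to 10804, with a median of 10344. Every HT library lay below every WT library: the highest HT value, 10870, was in vehicle library 4 and the lowest WT value, 10954, in vehicle library 5.

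The HT minus WT difference of Hpca was -0.10 ± 0.03 under vehicle and -0.16 ± 0.03 under DCS (log2, SE), which is -6.94% and -10.2%. Over both treatments it was -0.13 ± 0.02, or -8.60%. The lowest library, HT DCS 6, also had the lowest striatal (10.49), pan-neuronal (14.48), interneuron (11.25) and oligodendrocyte (13.32) marker means of all 23 libraries, on the log2(value + 1) scale, and the part of these in its Hpca value was not tested. Without it the difference under DCS was -0.13, and over both treatments, leaving out any 1 library gave -0.14 to -0.12. Across the table, groups that did not overlap in the lower direction were found for 0.133% of genes under vehicle, for 0.243% under DCS and for 0.0058%, a single gene, over both treatments. That gene was Hpca, but since genotype was what chose it, the count is not evidence of its own.

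**Figure D2:**
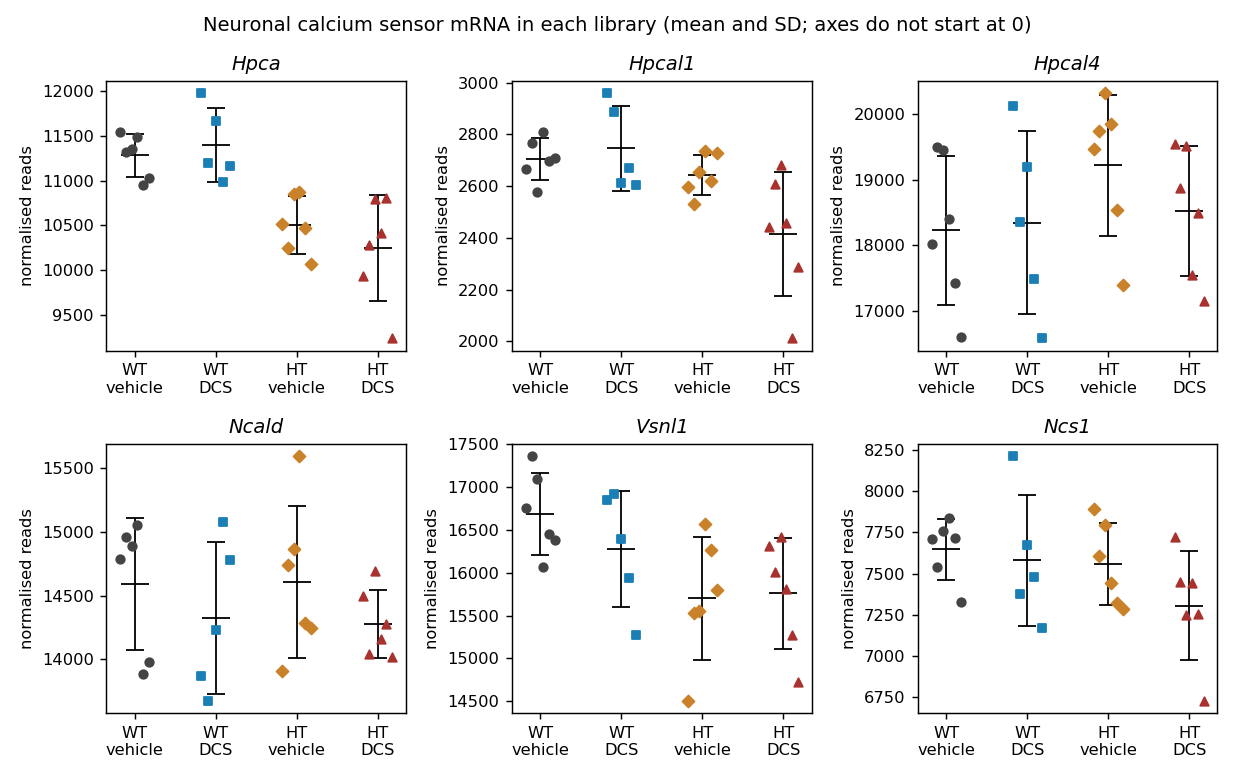
Normalised reads of each sensor gene in every library (points), with the mean and SD of each group. Axes do not start at 0. In the Hpca panel all 12 HT points lie below 10954, the lowest WT value, whereas the groups of the other 5 genes overlap.

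Hpcal1, hippocalcin-like protein 1, is the closest relative of hippocalcin by coding sequence and is prominent in Purkinje cells of the cerebellum. Under vehicle it ranged in WT from 2577 to 2809 (median 2703) and in HT from 2531 to 2735 (median 2636), and these ranges overlapped. In WT DCS it was 2959, 2885, 2613, 2671 and 2605, and in HT DCS it ranged from 2011 to 2682 (median 2449). The widest spread was thus in HT DCS, where the SD was 241 around a mean of 2415, against 164 in WT DCS and 80.6 and 78.8 in the WT and HT vehicle groups.

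The lowest Hpcal1 values, 2011 and 2289, came from HT DCS libraries 5 and 6, the pair with the lowest hindbrain markers, and library 5 also had the lowest cerebellar marker mean. The HT minus WT difference was -0.03 ± 0.05 under vehicle and -0.19 ± 0.05 under DCS. Without library 5 the value under DCS was -0.14, and without libraries 5 and 6 it was -0.11. The part of tissue composition in it was not tested.

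Ncald encodes neurocalcin delta, a sensor that binds clathrin and has been linked to endocytosis. Its values ranged from 13883 to 15052 in WT vehicle (median 14837), from 13907 to 15597 in HT vehicle (median 14517) and from 14020 to 14694 in HT DCS (median 14218). In WT DCS it was 13868, 13673, 14232, 15079 and 14779. All 4 groups overlapped, and the HT minus WT difference was 0.00 ± 0.03 under vehicle and -0.00 ± 0.03 under DCS.

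Vsnl1 encodes visinin-like protein 1, which promotes the surface expression of nicotinic acetylcholine receptors and is measured in cerebrospinal fluid as a marker of neuronal injury. It ranged from 16067 to 17364 in WT vehicle (median 16603) and from 14500 to 16571 in HT vehicle (median 15676). In WT DCS it was 16850, 16915, 16400, 15945 and 15277, and in HT DCS from 14727 to 16423 (median 15912). HT values sat mostly low in the WT range or below it, with overlap under either treatment.

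The HT minus WT difference of Vsnl1 was -0.09 ± 0.03 under vehicle, -0.05 ± 0.03 under DCS and -0.07 ± 0.02 over both. The vehicle value was uneven over the libraries: it was -0.17 among those numbered 1 to 3 and -0.01 among those numbered 4 to 6. The labels do not say what the numbers mark.

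Hpcal4 encodes hippocalcin-like protein 4, a visinin-like protein that modulates voltage-gated calcium channels. It ranged from 16595 to 19492 in WT vehicle (median 18213), from 17394 to 20318 in HT vehicle (median 19608) and from 17156 to 19541 in HT DCS (median 18681). In WT DCS it was 20121, 18347, 19191, 17489 and 16579. Its HT minus WT difference was 0.08 ± 0.05 under vehicle and 0.02 ± 0.05 under DCS, the latter -0.02 without WT DCS library 5, and its groups overlapped. Its spread was also among the widest, with a coefficient of variation of 6.11% over all libraries against 3.44% for Ncald.

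Ncs1 encodes neuronal calcium sensor 1 (frequenin), which binds phosphatidylinositol 4-kinase beta and limits the desensitisation of dopamine receptors. It ranged from 7327 to 7838 in WT vehicle (median 7710.1), from 7286 to 7892 in HT vehicle (median 7525) and from 6727 to 7719 in HT DCS (median 7348). In WT DCS it was 8212, 7373, 7672, 7476 and 7169.8. The groups overlapped, with HT minus WT at -0.02 ± 0.03 under vehicle and -0.05 ± 0.04 under DCS.

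By genotype, then, 5 of the 6 members had a lower mean in HT over both treatments, and 1 a higher one, beside 50.5% of all genes lower. Ncald, among the 5, differed by just -0.00 ± 0.02, and leaving out 1 library gave -0.011 to 0.008. The median of the 6 differences was -0.05, against -0.00 over all 17256 genes. Both the count of 5 and this median include Hpca, which was chosen by its genotype p, so neither is evidence about the family. By limma with Benjamini-Hochberg adjustment no gene passed 0.05 for genotype over both treatments (0% called), and 1237 genes had an unadjusted p under 0.05. The vehicle comparison likewise called 0 genes, with 729 under 0.05 unadjusted, and the DCS comparison 0, with 1302. Per kb of merged exons, the share of Hpca in the summed level of the family was 18.6% in WT vehicle, 19.0% in WT DCS, 17.9% in HT vehicle and 17.8% in HT DCS. That of Hpcal4 was 16.4%, 16.7%, 17.9% and 17.6%. These shares depend on the length used and were not computed by principal transcript.

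**Figure D3:**
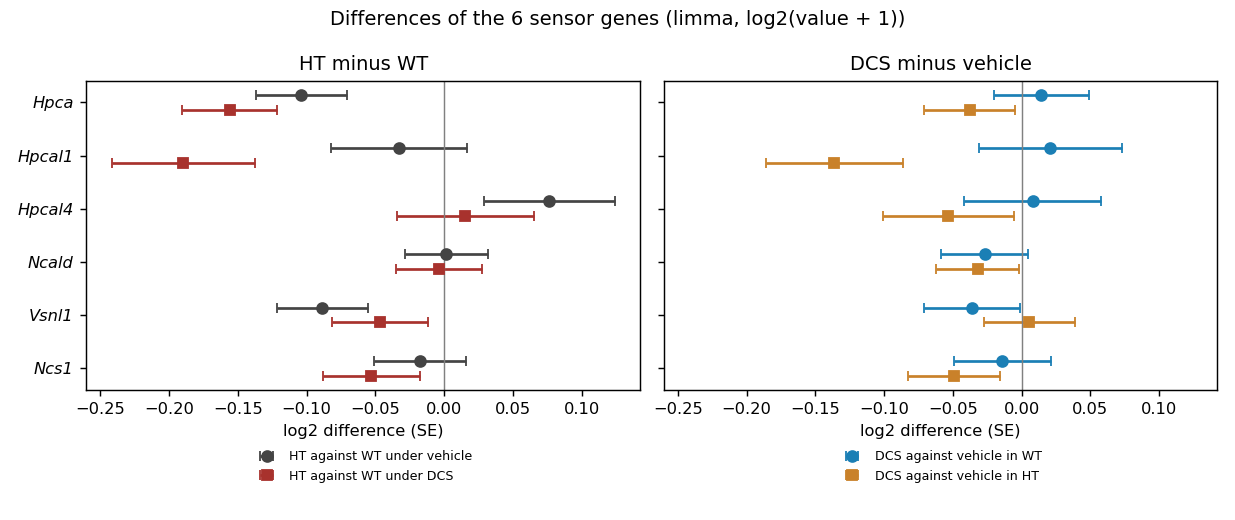
Log2 differences of the 6 sensor genes with SE from limma, HT minus WT on the left and DCS minus vehicle on the right. Hpca lies below 0 for genotype under either treatment, at -0.10 and -0.16, and the treatment differences lie near 0 except that of Hpcal1 in HT, at -0.14.

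The treatment comparisons did not enter the choice of members and were tested. DCS moved none of the 6 genes past the threshold in either genotype. In WT the differences from vehicle were 0.01 ± 0.03 for Hpca, 0.02 ± 0.05 for Hpcal1, 0.01 ± 0.05 for Hpcal4, -0.03 ± 0.03 for Ncald, -0.04 ± 0.03 for Vsnl1 and -0.01 ± 0.04 for Ncs1 (limma, adjusted p = 0.999999 for each). The intervals bound what could have been missed: that of Hpca ran from -0.06 to 0.09 and that of Hpcal4 from -0.09 to 0.11. In the whole table limma called 0 genes (0%) for DCS in WT, with 497 under an unadjusted 0.05.

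In HT, Hpcal1 had the largest treatment difference among the members, -0.14 ± 0.05 with a 95% interval from -0.24 to -0.03 (limma, unadjusted p = 0.0108, adjusted p = 0.973). It rested on few libraries: without HT DCS library 5 it was -0.08, and it was -0.01 among libraries numbered 1 to 3 and -0.26 among those numbered 4 to 6. Hpca differed by -0.04 ± 0.03, with an interval from -0.11 to 0.03 (limma, adjusted p = 0.974), and by -0.01 without HT DCS library 6. For Hpcal4 (-0.05 ± 0.05), Ncald (-0.03 ± 0.03), Vsnl1 (0.01 ± 0.03) and Ncs1 (-0.05 ± 0.03) the intervals all held 0. Limma called 0 genes (0%) for DCS in HT, with 828 under an unadjusted 0.05. This comparison shares its DCS libraries with the genotype comparison under DCS, and its vehicle libraries with that under vehicle.

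Averaged over the genotypes, the 6 treatment differences ran from -0.06 for Hpcal1 to -0.01 for Hpca, with an adjusted p of 0.999995 in limma for each. No gene of the table was called there (0%), and 545 had an unadjusted p under 0.05. The change of the genotype difference with treatment, which contains the values that chose Hpca, is given as a description only. No gene was called for it (0%), with 756 under an unadjusted 0.05 in limma. It was -0.05 ± 0.05 for Hpca, -0.16 ± 0.07 for Hpcal1 and 0.04 ± 0.05 for Vsnl1. The Hpca value was -0.02 without HT DCS library 6, that of Hpcal1 -0.07 without HT DCS libraries 5 and 6, and that of Vsnl1 0.02 without HT vehicle library 1.

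Because hippocalcin is abundant in the striatum, Hpca was set beside 12 genes of striatal projection neurons. Their mean on the log2(value + 1) scale was 10.71 in WT vehicle, 10.68 in WT DCS, 10.58 in HT vehicle and 10.58 in HT DCS. The HT minus WT difference of this mean was -0.12 under vehicle and -0.10 under DCS, with 11 and 10 of the 12 genes lower, and the ranges of HT and WT overlapped, from 10.49 to 10.67 and from 10.60 to 10.90 over both treatments. Over both treatments the list differed by -0.11, beside -0.13 for Hpca, with 12 of 12 genes lower. Every gene was also lower in the hindbrain (12 of 12, -0.58), oligodendrocyte (10 of 10, -0.17) and interneuron (7 of 7, -0.03) lists. All were higher in the microglia (8 of 8) and endothelial (6 of 6) lists, and 50.5% of all genes were lower.

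Taken relative to the striatal mean in each library, Hpca differed between HT and WT by 0.02 under vehicle, -0.06 under DCS and -0.02 over both treatments, and the HT and WT libraries overlapped. Without WT vehicle library 1, whose striatal mean was the highest, these values were -0.02 under vehicle and -0.04 over both treatments, and the striatal mean itself differed by -0.08 under vehicle. Each such value is the Hpca difference less that of the list, so its size follows the list's own difference. The other neuronal lists taken differed by -0.05 (hippocampal), 0.03 (cortical excitatory), -0.02 (pan-neuronal) and -0.03 (interneuron) over both treatments. Relative to them, Hpca differed by -0.08 against 9 hippocampal markers and -0.16 against 12 cortical excitatory markers. It differed by -0.11 against 6 pan-neuronal markers and -0.10 against 7 interneuron markers. Hpca was not set against the remaining lists, which themselves differed by -0.58 (hindbrain) to 0.15 (microglia), with oligodendrocyte at -0.17. Hpcal4 stood at 0.15 relative to the striatal mean over both treatments, and Ncald at 0.11. Their own genotype differences were 0.05 ± 0.03 and -0.00 ± 0.02, so most of these relative values restates the -0.11 of the striatal mean. The part of the striatal genes in the Hpca difference was not tested.

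A separate measure is the spread within groups. After subtracting each group's mean, Hpca followed the striatal mean over the 23 libraries with a Pearson r of 0.66 and a Spearman rho of 0.70 (permutation p = 0.00011, adjusted over 78 relations 0.00507 for r and 0.0257 for rho). Without WT vehicle library 1 and WT DCS library 1, the farthest in the striatal mean, r was 0.69. Hpca had a like r with the interneuron list (0.66, rho = 0.46) and the pan-neuronal list (0.655, rho = 0.49). Their adjusted p for r by permutation was 0.0762 and 0.0575, and without the 2 farthest libraries r was 0.36 and 0.42. With the oligodendrocyte list r was 0.57, and 0.23 without the 2 farthest. With the hippocampal list r was 0.42 (rho = 0.36, permutation, adjusted p for r = 0.221), and 0.19 without the 2 farthest. These relations between the 6 members and 13 marker lists were chosen after the data were seen, and all values share each library's scaling and dissection.

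**Figure D4:**
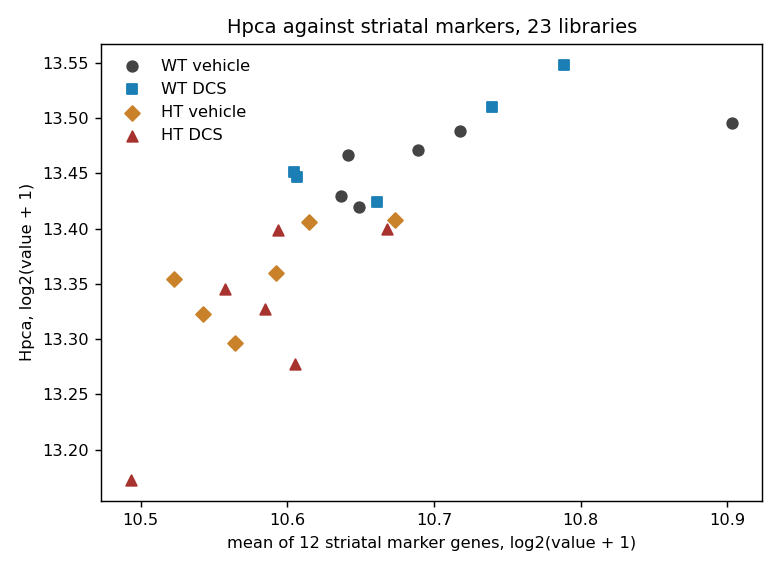
Hpca against the mean of 12 striatal marker genes, both as log2(value + 1), with 1 point per library and a symbol per group. HT libraries lie below all WT libraries for Hpca and overlap them on the striatal axis, where WT vehicle library 1 stands apart at 10.90.

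In the same family of 78, just 2 further relations passed an adjusted 0.05. Hpcal4 followed the oligodendrocyte list (r = 0.72, rho = 0.67, permutation, adjusted p = 0.00507), and r was 0.64 without HT DCS library 6 and HT vehicle library 6. Vsnl1 followed the pan-neuronal list (r = 0.73, rho = 0.70, permutation, adjusted p = 0.0101), with r = 0.65 without HT DCS library 6 and WT DCS library 1. Hpcal1 had an r of 0.68 with the cerebellar list (rho = 0.33, permutation, adjusted p = 0.199), which dropped to 0.23 without HT DCS libraries 5 and 2, so that relation rests on those libraries. With the hindbrain list its r was 0.63, and 0.34 without HT DCS libraries 5 and 6.

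Among the members themselves, 15 pairs were compared by the same deviations from group means. Hpcal4 and Ncs1 went together most closely, with r = 0.70 and rho = 0.61 (permutation, adjusted p = 0.0084 and 0.0467) and r = 0.64 without the 2 farthest libraries. Hpca and Hpcal4 came next, with r = 0.60 and rho = 0.53 (permutation, adjusted p = 0.0173 and 0.0523) and r = 0.62 without the 2 farthest. With quantile normalisation the pair of Hpca and Hpcal4 no longer passed (r = 0.49, permutation, adjusted p = 0.13).

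Hpca and Hpcal1, the most alike in sequence, had an r of 0.14 (rho = 0.24, permutation, adjusted p = 0.787), or 0.43 without HT DCS libraries 6 and 5. Hpcal1 and Vsnl1 had r = 0.52 and rho = 0.60 (permutation, adjusted p = 0.0744 and 0.0467). Ncald had r between -0.04 and 0.25 to the other 5 members. Hpcal1 lay in the same range with every member but Vsnl1.

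**Figure D5:**
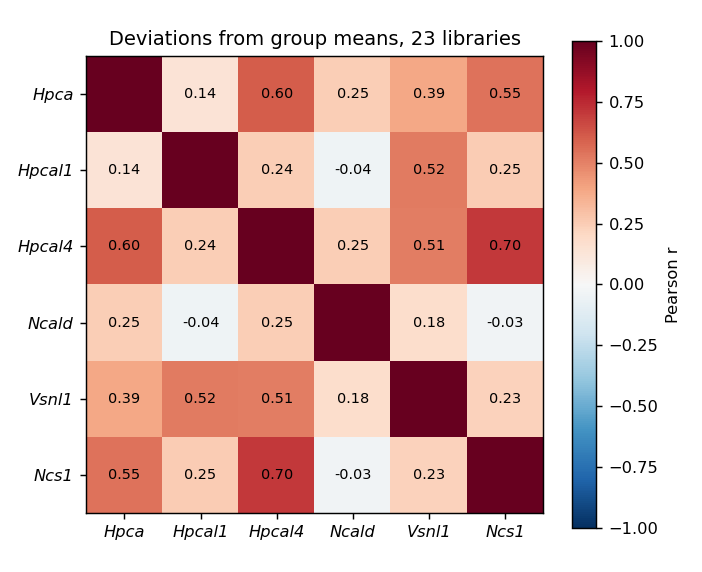
Pearson r between the 6 sensor genes over 23 libraries, after subtracting group means from log2(value + 1). The highest value is 0.70 for Hpcal4 with Ncs1, and the Ncald row runs from -0.04 to 0.25.

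The genes most like each member were sought by the same r over all genes tested, as a description. For Hpca they were Rpp25 (0.84), Kctd17 (0.83), Baiap2 (0.80), Gad1 (0.80) and Phyhip (0.80), of which Gad1 encodes an enzyme that makes GABA. Hpcal4 had the closest likenesses of any member, Nrsn1 (0.96), Ddn (0.94), Dmtn (0.92), Zfp365 (0.91) and Scn2b (0.91), where Ddn encodes the dendritic protein dendrin and Scn2b a sodium channel subunit. Hpcal1 was most like Gnas (0.88), Ubb (0.87), Cops3 (0.87), Ndufb7 (0.86) and Aes (0.86), which include a G protein subunit, a ubiquitin gene and a subunit of respiratory complex I.

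Ncs1 was nearest to Nrsn2 (0.89), Prkar1b (0.87), Spock2 (0.86), Syt11 (0.85) and Plekhb2 (0.85). For Vsnl1 they were Kif1bp (0.83), Dnajb9 (0.82), St3gal5 (0.81), Rnf220 (0.79) and Pink1 (0.79). Ncald had the loosest likenesses, Tmem167b (0.74), Lhfpl5 (0.69), Krt12 (0.67), Fbxw7 (0.65) and the metabotropic glutamate receptor gene Grm5 (0.63).

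Other genes of calcium sensing were counted beside the members. Of 7 listed recoverin-like sensors and potassium channel interacting proteins (KChIPs), 6 were in the table and 5 were tested, and limma called none in any treatment comparison. The most abundant, Kcnip3, averaged 3853 normalised reads in the WT vehicle group, and its DCS minus vehicle difference in HT was -0.09 ± 0.04 (limma, adjusted p = 0.973). Kcnip2 (-0.03 ± 0.04) and Kcnip4 (0.03 ± 0.04) stood on either side of 0. The median treatment difference of the list was -0.01 in WT and -0.03 in HT, against 0.00 and -0.00 over all genes.

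Among 17 other EF-hand sensors and buffers, again none was called in a treatment comparison, and the medians were 0.00 in WT and -0.01 in HT. Calm3 and Calm2, which encode calmodulin, had DCS minus vehicle differences in HT of 0.02 ± 0.03 and 0.01 ± 0.03. By genotype over both treatments, in the same libraries that chose Hpca, 14 of these 17 genes had a lower mean in HT, as did 4 of the 5 tested recoverin-like sensors and KChIPs and 50.5% of all genes.

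Enzymes and partners of the sensors were also looked at: the myristoyl transferases, the phosphatidylinositol kinase and dopamine receptor that Ncs1 acts on, the AP2 adaptor that hippocalcin binds, and AMPA receptor subunits. None of the 17 was called for treatment, and the list's median was 0.00 in WT and -0.01 in HT. The differences in HT were -0.02 ± 0.02 for Dlg4, which encodes the scaffold PSD-95, -0.01 ± 0.03 for Ap2m1, the AP2 subunit mu, and 0.06 ± 0.05 for Gria2, an AMPA receptor subunit. Of 8 potassium channels of the afterhyperpolarisation and of the A-type current, which KChIPs regulate, none was called either, and the differences in HT were 0.06 ± 0.06 for Kcnq3 and -0.03 ± 0.03 for Kcnd2. The list's median was 0.01 in WT and 0.02 in HT. By genotype over both treatments, 10 of the 17 partners and 6 of the 8 channels had a lower mean in HT, beside 50.5% of all genes.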

How the data were processed

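The 23 brain RNA libraries were made with a kit that keeps strand and selects mRNA, per the labels. What the authors deposited is a signal table of 18848 genes, in which read counts had been scaled to make libraries comparable. GRCm38, DESeq2 1.26.0, Salmon 1.1.0 and R 3.6.2 appear in the submitters' processing notes without their roles. Low values lay near multiples of a step per library, but only 62.0% to 80.7% of values up to 5 steps came within 0.15 of such a multiple, and whole reads were not recovered. Depth was estimated as total over step. Scaling hides differences in total RNA.

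Limma 3.58.1 in R 4.3.3 was fitted to log2(value + 1) of the 17256 genes whose mean was 10 or more, with 1 coefficient for each of the groups, trend and robust moderation and two-sided Benjamini-Hochberg adjustment at 0.05. A difference on this scale understates that of low genes. The procedure was also run on simulated data with independent noise for each gene. The planted differences were larger than those of the members in the main fit, so that run does not bear on them. Relations used 100000 permutations within groups, so 1e-05 is the smallest p they can give. Transcripts, lengths and coordinates came from GENCODE M21 on GRCm38, with symbols lacking for 16 identifiers.

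The members, gene lists and tests were chosen with earlier results of these data known. Named were all members, any called gene of a fixed list and otherwise its 3 most abundant genes, and the 5 genes most like each member, predicted models left out. Some genes named by this rule are not reported here. Alternatives changed the pseudocount, filter, normalisation and replicate block, and left out each library. A term for the numbers 1 to 3 and 4 to 6, fits within each range, the second length, leaving out HT DCS libraries 5 and 6 together, the marker relations and the striatal values without each library were added after the data were seen. The fifth WT DCS library carries number 6 in its description and 5 in its title.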

Additional observations from a re-analysis of the deposited data

Results flagged for a closer look

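Of 76 groups of member and marker values tested for a single library far from the rest, 4 held one, where chance gives about 1 in 20, and none was a member gene. The striatal mean was 10.9035 in WT vehicle library 1, against 10.64 to 10.72 in the other 5. The interneuron mean was 11.2512 in HT DCS library 6, against 11.35 to 11.40. The cerebellar mean was 10.8604 in HT DCS library 5, against 11.21 to 11.32, and this library also held the lowest Hpcal1 value. The hindbrain mean was 4.67573 in WT vehicle library 3, against 5.33 to 5.46. All are means of log2(value + 1).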

How the results depend on the processing

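Of the members' treatment differences under the alternatives, 641 kept their sign and 25 did not. The count of genes called for genotype over both treatments was 0, but 2 under quantile normalisation, 4 with a term for the number ranges and 6 with a replicate block by either numbering, or 0.0116%, 0.0232% and 0.0348% of genes. The 2 were Syt2 and Hpca. Hpca was also among the 4 and the 6, but it was chosen by its genotype p, so these calls lend it no support. Whether the numbers pair the libraries is not stated in the labels and was not tested. By titles, 5 of 33 same-number pairs correlated above 0.1, and the median r was 0.015 against -0.0025 for other pairs. By titles 7 of 23 libraries went best with their own number, and by descriptions 8. No share expected by chance is given for these counts, so they do not tell whether the numbers pair the libraries. Leaving out 1 library gave 0 to 1 genes called for genotype over both treatments and under DCS, and for DCS in HT. Member pairs passing 0.05 numbered 2, or 1 with quantile normalisation, which lost Hpca with Hpcal4 and where r was 0.039 for Hpcal1 with Ncald. For Ncald with Ncs1, r was 0.042 without the 2 farthest libraries.

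Small treatment differences changed sign, and the cause was not tested. In WT, Hpcal4 was -0.00400 under quantile normalisation, -0.018 with the replicate block by titles and -0.0045 with the range term, and Hpca was -0.00173 with the block. Within numbers 4 to 6 in WT, Hpca was -0.011, Hpcal1 -0.054, Hpcal4 -0.036 and Ncald 0.062, and Ncs1 was 0.014 within 1 to 3. Over both genotypes, Hpcal1 and Vsnl1 were both 0.034 within 1 to 3, Ncald was 0.0039 within 4 to 6, and Vsnl1 was 0.0023 without HT DCS 5 and 6. In HT, Vsnl1 was -0.087 within 4 to 6. Leaving out 1 library, the WT ranges were -0.0037 to 0.027 for Hpca, -0.0065 to 0.039 for Hpcal1, -0.026 to 0.044 for Hpcal4 and -0.043 to 0.0058 for Ncs1, with Vsnl1 in HT at -0.017 to 0.025 and Hpca over both genotypes at -0.021 to 0.0030. None of these differences passed the threshold under any setting.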
